A study of Mus musculus with 6 samples.

Results

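The 8749 enriched probes described here gave a high ratio of methylated DNA over input on every array of the series. They were chosen from 174638 mouse tiling-array probes, of which 167117 lie on autosomes. An autosomal probe could be chosen if its input signal was well above background and its spot carried no non-uniformity flag on any of the 6 arrays, and 98320 probes met this (the kept probes). A kept probe was called enriched if its log2 ratio of immunoprecipitated over input signal, centred on the median of all probes of the array, was at least 0.7 on each of the 6 arrays. The enriched probes were 8.9% of the kept probes. Because these ratios chose the members, their levels are described without a test.

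DNA came from pancreatic tissue of mouse offspring at an age of 12 weeks. Mothers in the intolerance group had maternal glucose intolerance (3 arrays), and those in the tolerance group had maternal normal glucose tolerance (3 arrays). The labels name no strain, sex, diet or agent. The series title speaks of hyperglycemic dams, and the question is how the pancreatic methylation of their young differs. Whether each array holds DNA of its own animal or litter is not stated, so p-values measure only the spread between these samples, some of which may be technical. Where 3 values of a group are listed below, they are those of replicates 1, 2 and 3 in that order, with the intolerance group first.

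In mammals DNA methylation sits mostly on cytosines that are followed by guanine (CpG sites). In methylated DNA immunoprecipitation (MeDIP), an antibody against methylated cytosine pulls down fragments of the genome, and a fragment with many methylated sites is pulled down more readily than a fragment with few. A high ratio therefore depends on how many CpG sites a fragment has as well as on how many of them are methylated. Promoters that are rich in CpG sites are mostly unmethylated in adult tissues, while CpG sites elsewhere are mostly methylated. Adult pancreas consists largely of acinar cells, which make digestive enzymes, and holds a small share of endocrine islets, so the bulk signal averages over these cell types.

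The enriched probes had a median ratio over the 6 arrays of 1.30 log2 units, or 2.46-fold over the array median. Means of single probes ran from 0.79 to 2.63 log2 units, which is 1.73-fold to 6.18-fold. Most lay not far above the threshold: 3366 probes reached 1.0 on every array, 1486 reached 1.2, 305 reached 1.5 and 9 reached 2.0. Just inside the threshold, the lowest ratio over the arrays was 0.7001 for a probe on chromosome 11 at 109208050 to 109208101 and for a probe on chromosome 5 at 115790867 to 115790911. The 2 kept probes just outside it, on chromosome 11 at 4604946 to 4604990 and on chromosome 8 at 80248337 to 80248381, had 6-array means of 1.03 and 1.04 log2 units. Those just inside had means of 0.93 and 0.98, so the cut separates probes of like level.

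The median ratio of the enriched probes was 1.54, 1.30 and 1.23 log2 units in the intolerance group. It was 1.49, 1.16 and 1.09 in the tolerance group. The first replicate of each group stood above the other arrays, and the 2 groups overlapped. Of the enriched probes, 41.1% had their highest ratio on glucose intolerance replicate 1 and 30.8% on normal tolerance replicate 1, while 36.9% had their lowest on normal tolerance replicate 3. The same arrays differed in the spread of all kept probes, with a standard deviation of 1.39 and 1.53 log2 units on these first replicates against 1.03 to 1.18 on the other arrays. The number of kept probes at or above 0.7 ran from 16516 on normal tolerance replicate 3 to 27449 on glucose intolerance replicate 1. Of the probes over the threshold on normal tolerance replicate 3, 53% were over it on all 6 arrays, against 31.9% of those on glucose intolerance replicate 1. The within-group standard deviation of an enriched probe had a median of 0.27 log2 units.

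**Figure D1:**
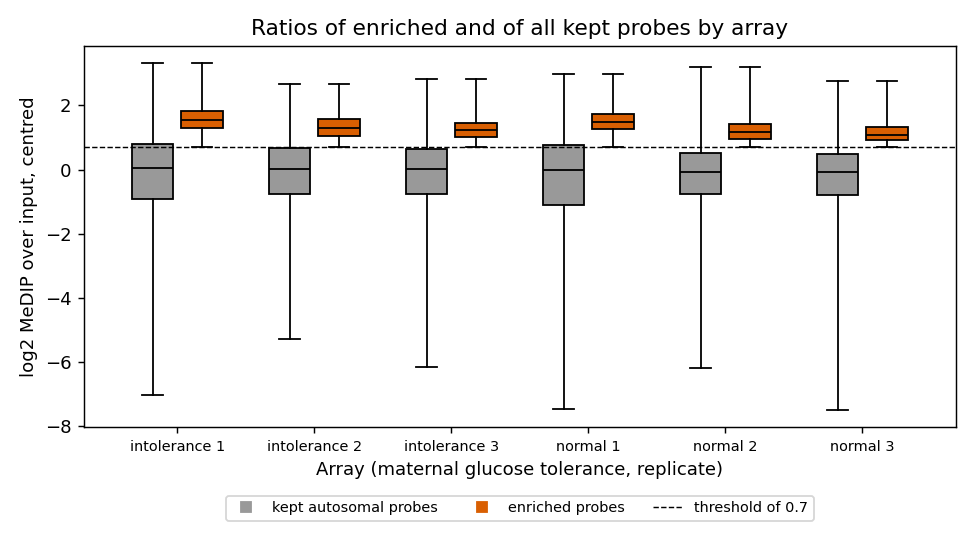
Log2 ratio of MeDIP over input signal, centred on the array median, for all 98320 kept autosomal probes (grey) and the 8749 enriched probes (orange) on each of the 6 arrays; boxes give the median and quartiles, whiskers the lowest and highest probe, and the dashed line the threshold of 0.7. The medians of the enriched probes run from 1.09 to 1.54 and are highest on the first replicate of each group.

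The order of the enriched probes among themselves was kept less well from array to array than that of all kept probes. Spearman's rho across enriched probes was 0.50 to 0.58 within the glucose intolerance group, 0.38 to 0.55 within the normal tolerance group and 0.28 to 0.51 between groups. Across all kept probes it was 0.92 to 0.94, 0.85 to 0.91 and 0.77 to 0.93. These are descriptions across probes of the same arrays, and the enriched probes span a narrow range of ratios by the way they were chosen.

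The 5 probes with the highest lowest-array ratio lay on chromosomes 13, 19 and 2. The ratio of Ch_220697_0031559, on chromosome 13 at 74777296 to 74777340, was 2.61, 2.37 and 2.39 log2 units in the intolerance group and 2.34, 2.42 and 2.44 in the tolerance group. All 6 arrays lay close together, at 5.39-fold over the array median on average. Relative to the median of kept probes its input signal was at -1.65 log2 units and its MeDIP signal at 0.71. The probes on both sides, at 0.99 and 1.78, were high too but had been left out by the filters. Ch_220697_0068009, on chromosome 19 at 32786498 to 32786542, gave 2.93, 2.34 and 2.31 against 2.75, 2.33 and 2.29. Its input lay at 0.094 and its MeDIP signal at 2.52 log2 units relative to the median of kept probes, so here the MeDIP channel stood out and the input did not. The flanking kept probes, with mean ratios of 0.48 and 0.74, were well below it.

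The highest mean of all enriched probes, 2.63 log2 units, belonged to Ch_220697_0089170 on chromosome 2 at 120796377 to 120796421. It gave 2.59, 2.46 and 2.83 in the intolerance group and 2.99, 2.15 and 2.75 in the tolerance group, and its neighbours were at 0.45 and 0.39. Ch_220697_0027344 on chromosome 13 at 21809745 to 21809789 had a mean of 2.43, and Ch_220697_0092478 on chromosome 2 at 157740355 to 157740399 had 2.38. All 5 are 45 nt long, and each was the one enriched probe of its tiled block. None of the 5 was thus part of a run.

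Both channels contributed to the ratios. Relative to the median of kept probes of the array, the input signal of the enriched probes had a median of -0.50, -0.47 and -0.14 log2 units in the intolerance group and of -0.37, -0.56 and -0.54 in the tolerance group. Their MeDIP signal was at 0.96, 0.75 and 1.03 against 1.17, 0.62 and 0.61. On every array the median enriched probe was thus dimmer in the input and brighter in the immunoprecipitate than the median kept probe. The rule chose on the ratio of these channels, so this and the shares below follow partly from the choice. Averaged over the arrays, 5285 enriched probes (60.4%) had input below and MeDIP signal above the median of kept probes, a combination found in 12.8% of all kept probes. In 2490 (28.5%) both channels were at or above it, and in 974 (11.1%) neither the input nor the MeDIP signal was above it. The share of enriched probes was 12.5% in the dimmest of 3 equal classes of kept probes by input, 11.2% in the middle class and 2.98% in the brightest. All 8749 had a MeDIP signal well above background on the 6 arrays, and 0 of their spots were saturated.

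The clearest feature that the rule did not use was probe length. Probes of this design are 45 to 60 nt long, and 87.6% of the enriched probes had the shortest length of 45 nt, against 58.4% of kept probes. Of the kept probes of 45 nt, 13.4% (7667) were enriched. This share was 5.41% at 46 nt, 3.66% at 47 to 48 nt, 2.62% at 49 to 50 nt, 1.82% at 51 to 55 nt, 1.11% at 56 to 59 nt and 0.72% (35 probes) at 60 nt. Probes depleted on every array, with a ratio of at most -0.7 on all 6, ran the other way: they were 5.21% of kept probes at 45 nt and 58% at 60 nt. There were 14709 of these depleted probes in all, and 20.3% of them were 45 nt long.

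Length went with the signal of both channels over all kept probes. From 45 nt to 60 nt the median input signal went from 0.22 to -0.63 log2 units and the median MeDIP signal from 0.58 to -2.47, so that the median ratio went from 0.33 to -1.88. Enriched probes differed from other kept probes of their own length in both channels, which the rule partly sets. At 45 nt their input was at -0.43 and their MeDIP signal at 0.88. At 60 nt they were at -1.01 and 0.28. Short probes were also kept more often: 68.2% of autosomal probes of 45 nt passed the filters against 22.4% of those of 60 nt. How the lengths were set, and the base composition of the probes, are not given in the sources used here, and the part of length in the results below was not tested; values within probes of 45 nt are given for chromosomes, place in the block, distance and the group difference, and not for the counts of blocks and runs.

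**Figure D2:**
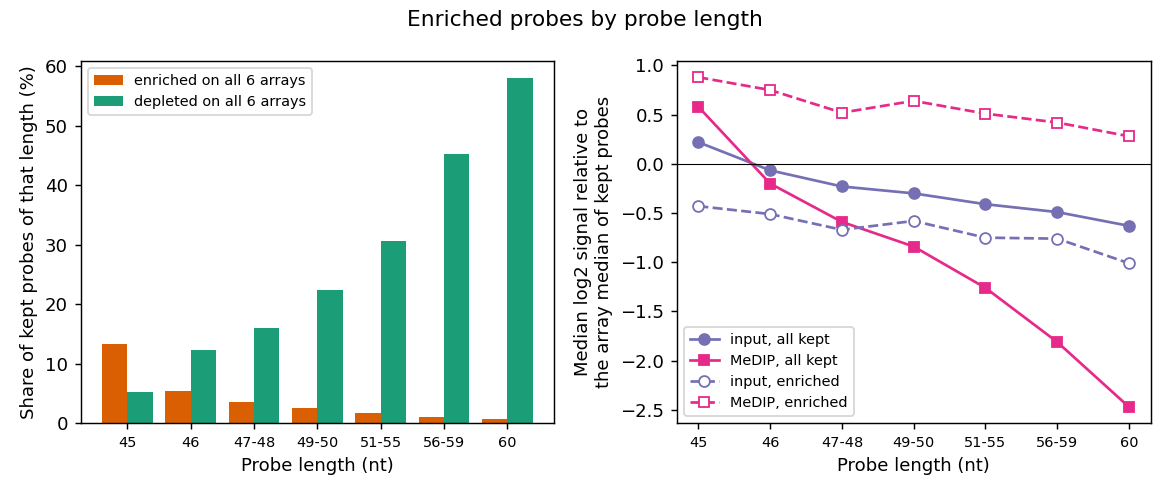
Left, the share of kept probes of each length class (nt) that were enriched (orange) or depleted (green) on all 6 arrays; right, the median log2 input and MeDIP signal relative to the median of kept probes, for all kept probes (filled) and for enriched probes (open). The enriched share falls from 13.4% at 45 nt to 0.72% at 60 nt, while the depleted share rises from 5.21% to 58%.

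Enriched probes were found on all 19 autosomes. Chromosome 11 held the largest number, 758, and chromosome 18 the smallest, 242. The share of kept probes that were enriched was highest on chromosomes 5 (606 of 5895, 10.3%) and 8 (490 of 4776, 10.3%). It was lowest on chromosomes 7 (639 of 9521, 6.71%) and 6 (437 of 5446, 8.02%). Chromosome 7 had the most kept probes of any autosome and also the largest share of depleted probes, 19.1%. Within probes of 45 nt the enriched share still ran from 10.5% on chromosome 7 to 15.1% on chromosome 12, and chromosome 7 was the lowest there too. On the array surface the share varied from 8.6% to 9.59% over 4 equal bands of rows and from 7.76% to 9.76% over 4 bands of columns. The bands are fewer and hold more probes than the chromosomes, so these ranges are not compared.

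The design tiles short stretches of the genome, and a block is taken here as a stretch of probes whose starts follow each other within 500 bp. Of 22941 autosomal blocks with a kept probe, 6971 (30.4%) held an enriched probe. In 5460 of them there was exactly 1, in 1273 there were 2 and in 238 there were at least 3. The highest number in a block was 6, reached in 2 blocks. The median distance from an enriched probe to the nearest other one was 20497 bp, with 33% of them within 1 kb. Blocks with an enriched probe held a depleted probe as well in 38.7% of cases. This was less often than in blocks without an enriched probe (46.8%) or in all blocks with a kept probe (44.3%).

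The enriched share varied with the place of a probe in its block. In blocks of at least 7 probes the enriched share was 7.38% for the outermost probes, 9.32% and 9.79% for the second and the third from the nearer end, 8.4% for the fourth and 12.3% further in. Within probes of 45 nt the same shares were 11.7%, 14.1%, 14%, 12.3% and 16.1%. The share was 4.38% among the 777 kept probes that stood alone and 6.59% in blocks of 2 or 3 probes, against 8.78% to 10.4% in larger blocks.

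Most enriched probes were single. Of the 7939 that had another kept probe within 500 bp next to them, 1672 (21.1%) had an enriched one there and so formed a run. Of all kept probes with such a neighbour, 13.2% had an enriched one there. The 1672 made 798 runs, of which 729 had 2 probes, 63 had 3, 5 had 4 and 1 had 5. Among all neighbours of enriched probes 14.7% were enriched, while enriched probes made up 9.3% of all places in neighbouring pairs. Of the neighbours of depleted probes 26.3% were depleted, against 14.3% of all places. Enriched probes in runs did not differ much from single ones in level, with a median of 1.33 log2 units against 1.29, but 93.4% of them were 45 nt long against 86.8%. A MeDIP fragment can span several probes, so neighbouring probes share DNA and are not independent.

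The longest run lay on chromosome 5 at 115607690 to 115608557 and had 5 probes over 868 bp. Its mean ratio was 1.56, 1.23 and 1.31 log2 units in the intolerance group and 1.66, 1.14 and 1.14 in the tolerance group. The groups overlapped, at 1.36 ± 0.18 against 1.32 ± 0.30 (SD, n = 3 each), and every probe of the run had at least 0.77 on every array. Its block of 8 probes held a further enriched probe at its far end, with a mean of 1.61, beyond a kept probe at 0.49 and a probe left out by the filters at 1.33.

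The 4-probe run on chromosome 5 at 144076541 to 144077200 had the highest mean of the 5 runs of 4, 1.60 log2 units. Its values were 1.83, 1.57 and 1.40 in the intolerance group and 1.84, 1.53 and 1.40 in the tolerance group, and the groups had nearly the same mean, 1.60 ± 0.22 and 1.59 ± 0.23 (SD, n = 3 each). The other 3 kept probes of its block had means of 0.60 to 0.73, and each fell below 0.7 on at least 1 array. On chromosome 1 at 193398812 to 193399683 the run gave 1.91, 1.70 and 1.46 against 1.91, 1.06 and 1.30, with a left-out probe at 0.11 in its midst.

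A pair of these runs ended in sharp steps. The run on chromosome 12 at 17697204 to 17697889 gave 1.75, 1.41 and 1.54 in the intolerance group and 1.82, 1.37 and 1.36 in the tolerance group. The other 3 kept probes of that block were at -0.80, -0.94 and -1.32, the last of them directly after the run. On chromosome 5 at 122804214 to 122805123 the run gave 1.49, 1.44 and 1.36 against 1.62, 1.34 and 1.1, and 3 kept probes on one side were at -1.04, -0.84 and -0.92, with a further one beyond them at 1.0. A left-out probe between them and the run, at 1.38, and one inside it, at 1.44, were as high as the run itself. All probes of the 5 runs were 45 nt long.

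**Figure D3:**
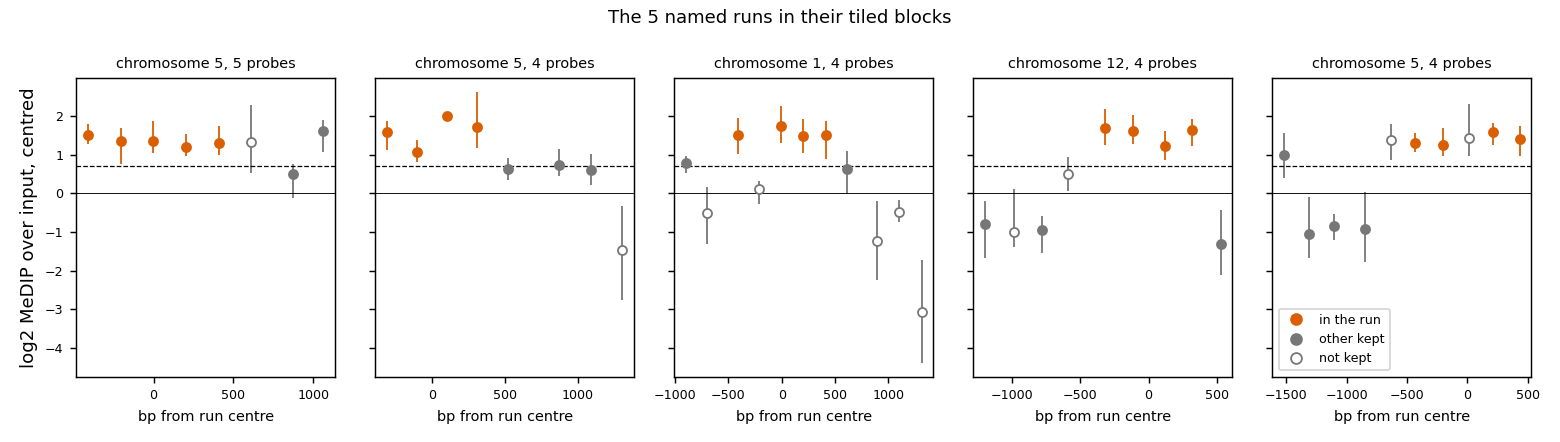
Log2 ratio of MeDIP over input, centred, for each probe of the blocks that hold the 5 longest runs, against its distance in bp from the centre of the run; points give the mean and bars the lowest and highest of the 6 arrays, with probes in the run in orange, other kept probes in grey and left-out probes open. The block on chromosome 12 passes from between 1.23 and 1.69 inside the run to -1.32 at the next kept probe.

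Probes near an enriched probe were high as a group, though most were not enriched. The share of enriched probes was 16.3% at 150 to 250 bp from another enriched probe, 11.3% at 250 to 500 bp, 9% at 500 to 1000 bp and 6.28% at 1000 to 2000 bp. The share of depleted probes ran from 5.7% to 16.6% over the same distances. Within probes of 45 nt the enriched share fell with distance as well. It was 19.2%, 14.8%, 13.5% and 9.75% over the same distances, against 13.4% of all kept probes of 45 nt. At 150 to 250 bp the median ratio of all kept probes was 0.58, 0.44 and 0.46 log2 units in the intolerance group and 0.53, 0.27 and 0.22 in the tolerance group. At 1000 to 2000 bp it lay between -0.20 and -0.10 on the 6 arrays. The decline over this range of distances was seen on each of the 6 arrays. These medians include the enriched probes, which are high by the rule. Among kept probes that were not enriched, the median ratio was lower, at 0.23, 0.057, -0.15 and -0.22 over the same distances. Among those of 45 nt it was 0.37, 0.27, 0.15 and 0.10, against 0.18 over all kept probes of 45 nt that were not enriched.

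**Figure D4:**
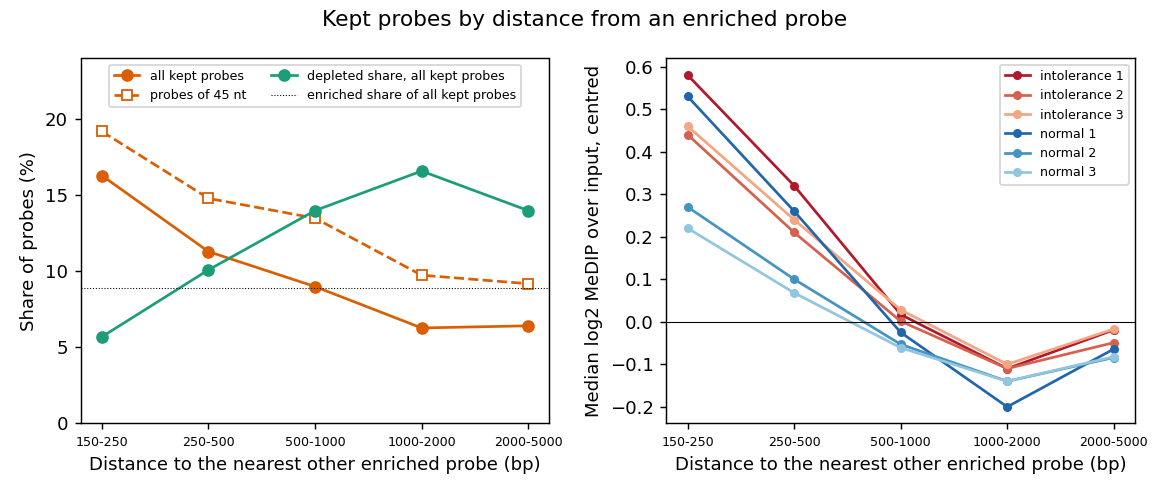
Kept probes by distance in bp to the nearest other enriched probe: left, the share that was enriched (orange, all kept probes filled and probes of 45 nt open) or depleted (green), with the enriched share of all kept probes, 8.9%, dotted; right, the median log2 ratio on each array. The enriched share goes from 16.3% at 150 to 250 bp to 6.28% at 1000 to 2000 bp.

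Within 500 bp, 10179 neighbours of enriched probes were not enriched themselves. They had a median ratio of 0.19 log2 units, with quartiles of -0.43 and 0.66, and 17.9% of them had a mean of -0.7 or lower, against 28.1% of all kept probes. The median step in ratio from the enriched probe was 1.15 log2 units, a size that the threshold partly sets. In 1909 of these pairs (18.8%) the step was at least 2 log2 units. Of the low neighbours in these pairs 43.9% were 45 nt long, against 74.2% of all such neighbours, so most of the steepest steps led to a longer probe.

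The group difference (glucose intolerance minus normal tolerance) was then taken for the enriched probes and set against its median over all tested autosomal probes. That median is called the common shift here. Arrays were centred on all their probes, so it describes the tested probes and not a shift shared by every probe. The median difference of the enriched probes was 0.10 log2 units (1.07-fold), with quartiles of -0.07 and 0.27, against 0.13 (quartiles -0.15 and 0.40) over all 109577 tested autosomal probes. Beyond that common shift, the median over enriched probes was at -0.036 log2 units. The common shift moved with the processing, from -0.018 after loess to 0.17 with normexp, and was 0.062 with centring on the kept probes. On the arrays themselves, the median enriched probe lay 1.5, 1.29 and 1.2 log2 units above the median kept probe in the intolerance group and 1.51, 1.22 and 1.16 above it in the tolerance group. These values overlap, at 1.33 ± 0.15 against 1.30 ± 0.19 (SD, n = 3 each). Taken from the array medians in this way the difference was 0.034, of the opposite sign to the -0.036, and both are small against the pooled standard deviation of 0.17 between arrays of a group. No direction beyond the common shift is therefore given for the enriched probes. Leaving out glucose intolerance replicate 3 or normal tolerance replicate 1 turned the sign of the -0.036, to 0.0076 and 0.056. The median of 0.10 itself depended on the scaling: it was 0.026 when arrays were centred on the kept probes, 0.0031 with the authors' deposited table, -0.032 after loess and -0.038 after quantile normalization. It also moved with single arrays, to 0.011 without glucose intolerance replicate 1, 0.064 without normal tolerance replicate 2, 0.03 without normal tolerance replicate 3, 0.16 without glucose intolerance replicate 3 and 0.20 without normal tolerance replicate 1.

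In neither channel did the groups separate over the enriched probes. Relative to the median of kept probes of the array, their median input was -0.37 ± 0.20 log2 units in the intolerance group and -0.49 ± 0.10 in the tolerance group (SD, n = 3 each). Their MeDIP signal was at 0.91 ± 0.14 and 0.80 ± 0.33. The arrays of the groups overlapped in both channels. Over the autosomes the median difference of the enriched probes ran from 0.07 on chromosome 7 to 0.12 on chromosome 18.

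The median difference also varied with probe length. Over kept probes it was 0.17 log2 units at 45 nt, 0.008 to 0.044 from 46 to 55 nt, 0.095 at 56 to 59 nt and 0.19 at 60 nt. Enriched probes were at 0.12 at 45 nt, which is 0.05 lower than all kept probes of that length (a value of -0.05). The enriched probes lay between -0.042 and 0.031 from 46 to 59 nt, and the 35 of 60 nt at -0.12. By level, the median difference was 0.34 in the lowest of 10 equal classes of kept probes by 6-array mean and between 0.072 and 0.15 in all others. It was 0.15 in the highest class, of which 78.2% were enriched. Kept probes of 45 nt that were not enriched but lay 150 to 250 bp from an enriched probe differed by 0.23, against 0.18 over all kept probes of 45 nt that were not enriched. These values stand side by side without a test, because the rule that parted enriched from other probes used the ratios of all 6 arrays.

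**Figure D5:**
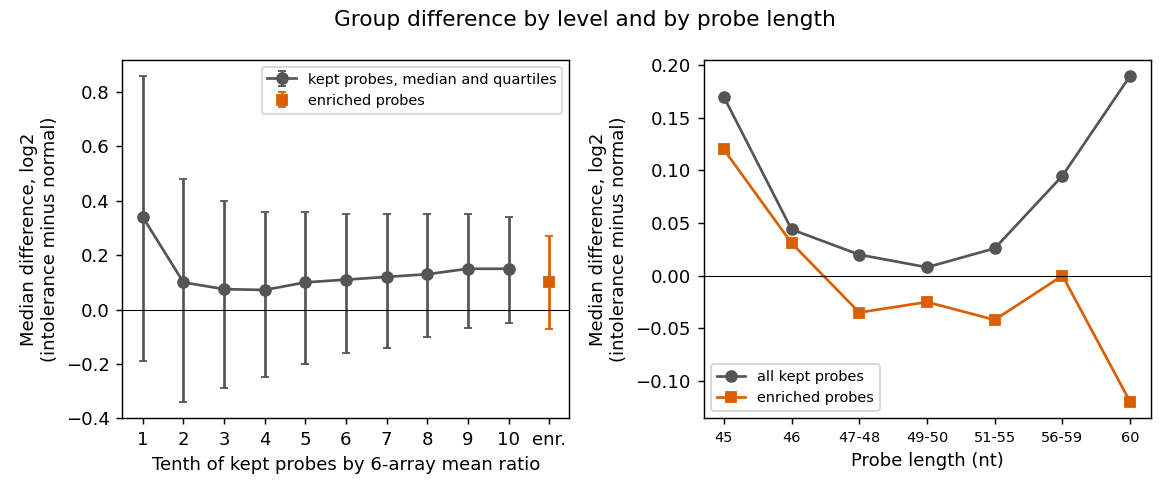
Median difference in log2 ratio, glucose intolerance minus normal tolerance: left, by 10 equal classes of kept probes ordered by 6-array mean ratio (grey, bars give the quartiles) and for the enriched probes (orange square); right, by probe length in nt for all kept probes (grey) and enriched probes (orange). The enriched probes are at 0.10 in all, against 0.15 in the highest class, and at 0.12 at 45 nt.

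Tested one by one, 0 of the 8749 enriched probes passed an adjusted p of 0.05 in limma, with Benjamini-Hochberg adjustment over all 113885 tested probes. Of all tested probes 0.000878% (1 probe) passed. At an unadjusted p under 0.05 there were 332 enriched probes (3.79%), against 16% of all tested probes. The background was 10.4% for probes higher with maternal glucose intolerance, where 266 enriched probes (3.04%) fell, and 5.59% for lower probes, where 66 (0.754%) fell. Groups did not overlap in 999 enriched probes (11.4%, background 22.8%). Of these 685 were higher (7.83%, background 14.6%) and 314 lower (3.59%, background 8.21%). Nothing is read from these gaps, since the rule kept out any probe that fell below 0.7 on an array and so limited the size of a difference: 5.47% of enriched probes were higher by 0.5 log2 units or more, against 18.4% of all tested probes, and 1.09% were lower by as much, against 8.85%. Of the 332 probes 80.1% were higher, against 65% of all tested probes at an unadjusted p under 0.05. The share among enriched probes was 66% with normexp, 53.1% with centring on the kept probes, 47% with the deposited table, 31.5% after quantile normalization and 31.2% after loess. Over all tested probes in the same fits it was 84.8%, 51.9%, 72.1%, 50.6% and 41.1%, in that order.

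The share and the counts depended on single arrays. The share that was higher was 41.9% without glucose intolerance replicate 1, 46% without normal tolerance replicate 3 and 94.4% without glucose intolerance replicate 3. Over all tested probes in the same fits it was 66.4%, 63.3% and 64.5%. The 332 became 155, 157, 1052, 123 and 126 without glucose intolerance replicate 1, glucose intolerance replicate 2, normal tolerance replicate 1, normal tolerance replicate 2 and normal tolerance replicate 3. These were 1.77%, 1.79%, 12%, 1.41% and 1.44% of the enriched probes, against 13.1%, 10%, 29.1%, 13.7% and 8.93% of all tested probes in the same fits. Without normal tolerance replicate 1, 17 enriched probes passed the adjusted threshold, as did 3.91% (4262) of all tested probes. The file headers give the 3 glucose intolerance arrays 1 scan, normal tolerance replicate 1 a scan of its own and the other normal tolerance arrays the last, so no scan held both groups and there is no value within a scan. With the scan as a random block in limma 41 enriched probes (0.469%) were at an unadjusted p under 0.05, against 5.98% of all tested probes, and 0 passed. Of 5991 tested regions of at least 3 probes that held an enriched probe, 818 (13.7%) were at an unadjusted p under 0.05 in limma, against 15.8% of all 18562 regions, and 0 passed the adjusted threshold, as in all regions (0%).

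The lowest p among enriched probes with a higher ratio belonged to Ch_220697_0061342 on chromosome 18 at 35114437 to 35114481. It gave 2.33, 1.79 and 2.03 log2 units in the intolerance group and 1.15, 0.90 and 0.84 in the tolerance group. The groups did not overlap, and the difference was 1.09 with a standard error of 0.23, or 2.13-fold (adjusted p in limma 0.133). MeDIP signal differed by 0.98 and input by 0.025 log2 units relative to the median of kept probes, so the difference lay in the MeDIP channel. Its kept neighbours differed the other way, by -0.70 and -0.83. Channel values of the probes below are relative to the median of kept probes too. Ratios were centred on all probes, so the channel values do not add up to the full difference.

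For Ch_220697_0093885 on chromosome 2 at 172944778 to 172944822 the ratios were 2.07, 1.76 and 1.77 against 1.01, 0.76 and 0.98. Here the difference of 0.95 came with an input lower by 0.62 (a value of -0.62) and a MeDIP signal higher by 0.19, and the enriched probe beside it differed by 0.22. Ch_220697_0155379 on chromosome 8 at 108129539 to 108129583 gave 1.84, 1.62 and 1.83 against 0.91, 0.73 and 0.93, a difference of 0.91 with shares from both channels (-0.38 in input, 0.39 in MeDIP). The adjusted p in limma was 0.14 and 0.141 for this pair of probes. In all 3 the tolerance arrays lay between 0.73 and 1.15, close to the limit of 0.7 that the rule sets.

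Among enriched probes with a lower ratio, Ch_220697_0039432 on chromosome 14 at 122850939 to 122850984 gave 1.60, 1.54 and 1.5 in the intolerance group and 2.34, 2.54 and 2.46 in the tolerance group. The difference was -0.90 with a standard error of 0.19 (adjusted p in limma 0.136), with standard deviations of 0.048 and 0.10 within the groups (n = 3 each). It lay in the input channel, which was higher by 1.09, while the MeDIP signal differed by 0.055. On chromosome 19, Ch_220697_0069087 at 45081024 to 45081068 gave 0.98, 0.87 and 1.07 against 1.54, 1.97 and 1.85. Of its kept neighbours, an enriched one differed by 0.32 and the other, at a ratio of -0.67, by -1.28. On chromosome 9, Ch_220697_0158201 at 20447553 to 20447597 gave 1.54, 1.39 and 1.37 against 2.15, 2.52 and 1.97. These differences, -0.81 and -0.78, had an adjusted p of 0.165 and 0.184 in limma. For the chromosome 9 probe the MeDIP signal was lower by 1.29 (a value of -1.29) and the input by 0.38 (-0.38), and its neighbours differed by 0.10 and -0.27. None of the 6 probes passed the threshold. Of their neighbours named here, the one of -1.28 beside the chromosome 19 probe differed in the same direction and by more than the probe itself.

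In the authors' deposited log2 table, 4856 of the enriched probes (55.5%) were at least 0.7 above the array median on all 6 arrays, and 98.4% were above the median on all 6, against 39.5% of kept probes. That table called 7626 kept probes by the same rule, of which 63.7% were the enriched probes described here. The median of the enriched probes was 0.95 to 1.01 log2 units on its arrays, so the first replicates did not stand out there. In those values 50.1% of called probes with a kept neighbour were in runs, against 21.1% in the scanner ratios. The called probes were 7.76% of kept probes there, against 8.9% in the scanner ratios. How the authors made the table, and whether values were averaged along the genome, is not given in the sources used here.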

How the data were processed

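Pancreatic DNA of 6 mouse offspring samples was profiled by MeDIP on 2-colour tiling arrays, with immunoprecipitated DNA in Cy5 and input DNA in Cy3 on every array, per the labels' protocols. The deposited scanner files hold spot intensity values from Agilent Feature Extraction 11.0.1.1, background-subtracted and dye-normalized, and, per the file headers, probe positions on mm9, a mouse build. The log10 ratio in the deposited files served as a check and in 96.7% of spots lay within 0.01 log2 units of the ratio of processed intensities. A log2 table by the authors was deposited as well, made by steps not given in the sources used here. The direction of its values follows from a correlation of 0.88 to 0.92 with the scanner ratios of the same array across kept probes, and it was used as an alternative.

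Log2 of processed Cy5 over Cy3 was centred on the median of the 174638 non-control probes of each array, with no loess or quantile step. The dye orientation never changed, so dye effects do not cancel. The filters left out 68797 autosomal probes, 55576 of them for dim input on an array, which was more frequent with maternal glucose intolerance: input was well above background on 71% to 78.7% of probes there and on 85.5% to 92.4% with normal tolerance. The red photomultiplier was at 359 V for the first group and at 394 V or 421 V for the second. The number of arrays limits the precision. Differences were fitted with limma 3.58.1 (lmFit, eBayes, R 4.3.3) over 113885 probes with input above background on all 6 arrays and at least 2 values in each group after outlier spots were set to missing, and the fit was checked on simulated data.

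Probes were named by rule: the 5 with the highest lowest-array ratio, for each direction the 3 of lowest p, the 2 just inside and the 2 just outside the threshold, the 5 longest runs (ties by mean ratio), and the 2 chromosomes with the highest and the 2 with the lowest share. Runs follow kept probes and pass over left-out ones. The members and lists were chosen with earlier results of these data known. No gene is named and no sequence is shown, since the files give coordinates alone and no genome of that build was used here.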

Additional observations from a re-analysis of the deposited data

How the results depend on the processing

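The number of enriched probes, 8749 or 8.9% of those that could have passed, moved with the processing. It was 14166 (14.4%) with a threshold of 0.5, 3366 (3.42%) with 1.0, 5736 (5.83%) with normexp and 3928 (4%) after loess. With no filter on input it was 13718, but out of more probes, and the share was nearly the same (8.95%). It lay between 9367 and 10852 with an array left out. There it could only rise, since the rule then asked for fewer arrays. Normexp used median spot signals. The 21.1% in runs moved to 9.44% with a threshold of 1.0, 13.7% with normexp, 10.8% after loess and 50.1% with the deposited table. It lay between 22.2% and 25.6% with an array left out, and gaps of 250 or 1000 bp kept it within 1.5 times. The share in runs also depends on how many probes are enriched. These were 3.42% of kept probes with a threshold of 1.0, 5.83% with normexp, 4% after loess and 7.76% with the deposited table. The lower shares in runs are therefore not read as weaker clustering. The count of 0 called probes became 69 with normexp, 127 with the deposited table and 1 after quantile normalization, where 6.07%, 5.06% and 1.51% of all tested probes passed, and 0 to 17 with an array left out. The 332 at an unadjusted p under 0.05 in limma (3.79%) became 634 of 14166 (4.48%) and 92 of 3366 (2.73%) with thresholds of 0.5 and 1.0. The share of all tested probes was 16% at each of these thresholds. The count became 1133 with normexp (13%, against 28.2% of all tested probes) and 1416 with the deposited table (16.2% against 28.7%). It was 41 with the scan as a random block (0.469% against 5.98%), and 123 to 1052 with an array left out. The cause was not tested. The difference beyond the shift, -0.036, lay between -0.10 and 0.056 over the settings run, within the spread between arrays. Within probes of 45 nt, probes over 45 nt and classes of input, settings chosen after seeing the data, it moved by less than that spread too. The 6 named probes were picked for their low p on these arrays, so their sign says little about stability. Their sizes moved: with the deposited table Ch_220697_0061342 was at 0.27, Ch_220697_0093885 at 0.41, Ch_220697_0155379 at 0.46 and Ch_220697_0039432 at -0.33. In 13 of 96 pairs of probe and setting an adjusted p of 0.05 was passed.

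With the replicate number as a block, 7 enriched probes passed and 538 (6.15%) were at an unadjusted p under 0.05, against 3.69% and 22.2% of all tested probes. Across tested probes the deviations from the group means of arrays with a shared number correlated at 0.493, 0.453 and 0.0171, and 4 of 6 arrays correlated best with their own number. The third value misses 0.1, while the first and second do not. Across the enriched probes alone the same correlations were 0.0863, -0.0507 and 0.0262. Whether samples with a shared number belong together is not stated, these correlations do not settle it, and the main fit did not pair them.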

Other observations

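The rule took autosomal probes alone. On chromosome X, 303 of 3853 probes that passed the same filters had a ratio of at least 0.7 on all 6 arrays (7.86%), or 12.1% of those of 45 nt, against 8.9% and 13.4% on the autosomes. Their median ratio was 1.48, 1.27 and 1.21 log2 units in the intolerance group (replicates 1, 2 and 3) and 1.49, 1.17 and 1.12 in the tolerance group, so the first replicates stood highest here as well. On chromosome Y 2 of 48 such probes reached the threshold.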
